A study of Mus musculus with 24 samples.

Results

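miR-221 and miR-222 were measured as 2 of the 566 mouse miRNA probes of an nCounter panel, in which a color-coded barcode is counted for each captured molecule. They were taken as the rows whose identifiers are mmu-miR-221 and mmu-miR-222. The study followed JygMC(A)-GFP/Luc cells, a mouse mammary carcinoma line that carries luciferase and a green fluorescent protein, from culture to primary tumor and lung metastasis. The line comes from a spontaneous tumor and spreads to the lung after injection into the mammary fat pad. The 24 samples were 2 monolayer cultures and 2 cultures of 3D spheres grown without attachment to the plate, 5 carcinoma and 7 EMT-like (spindle-shaped, mesenchymal-like) areas of primary tumors (PT), 4 lung metastases, 2 samples of normal mammary gland (NMG) and 2 of normal lung parenchyma. All tissue was cut by laser from female Balb/C nude mice, a strain without a thymus. The stated age of the animals was 6 to 9 weeks. Primary tumors were removed weeks after injection and metastases arose later, so that range is not the age at collection. Tumor samples therefore came from a host that lacks mature T cells, and every tumor and culture descends from the same cell line. Carcinoma, EMT-like and metastasis samples shared animals, 1 sample of each of these kinds was labelled with the names of 3 animals, and both normal tissues carry the same 2 sample numbers. Each culture is labelled a biological replicate, and nothing further states how the cultures were separated.

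A miRNA guides the silencing complex to messages that pair with its seed, the stretch from base 2 to base 8, and lowers their translation and stability. miR-221 and miR-222 are made from neighbouring hairpins on the X chromosome and share a seed, so their predicted targets overlap broadly. The best known are the CDK inhibitors p27 (Cdkn1b) and p57 (Cdkn1c), which hold cells back from division, the receptor Kit, and in breast cancer the estrogen receptor and TRPS1, a repressor of EMT. Both are abundant in endothelial and smooth muscle cells, and in human breast cancer they are known from basal-like rather than luminal tumors.

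The mature sequences are shown because the shared seed is what makes this a pair, with the seed in capitals, read 5′ to 3′ from RefSeq annotation of GRCm38.p6. The probes name no arm, and the 3p arm was taken because it is the one the older names without an arm stood for.
mmu-miR-221-3p: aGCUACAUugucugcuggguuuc
mmu-miR-222-3p: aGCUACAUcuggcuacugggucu
mmu-miR-1928: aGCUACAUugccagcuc
These lie on the minus strand at chrX:19146307-19146329, chrX:19146901-19146923 and chr1:74206562-74206578. Of the 1679 mature mouse miRNAs in the table, only these 3 have that seed, and all 3 were on the panel. The first 8 bases of miR-221 and miR-222 were identical, and 11 of 23 positions matched without gaps, so the probes differ mainly in the 3′ part. miR-1928 shared its first 10 bases with miR-221.

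Both hairpins are given because each holds 1 member in its 3′ arm, in capitals.
Mir221: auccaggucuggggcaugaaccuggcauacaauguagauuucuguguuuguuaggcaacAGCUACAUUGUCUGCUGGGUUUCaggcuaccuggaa
Mir222: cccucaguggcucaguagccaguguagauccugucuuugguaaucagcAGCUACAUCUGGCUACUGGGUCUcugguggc
Mir221 is annotated at chrX:19146294-19146388 and Mir222 at chrX:19146893-19146971, both on the minus strand. They are 504 bases apart, and together they span 678 bases. No other gene of the RefSeq table overlapped that span, so neither hairpin lay in an exon or intron of an annotated host gene.

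A deposited value is the count of a probe minus the mean of the 6 negative control probes of its lane, and it can fall below 0. A miRNA was called detected in a lane above the mean plus 2 SD of those controls, a limit of 4 to 21.4 counts. The sum of the mouse miRNA values differed between samples. It was 24418 to 44953 in the cultures and 61497 to 183539 in PT and metastases. In NMG it was 525225 and 559660, and in normal lung 589588 and 2334955. A positive control probe read 7950 to 11435 over the lanes, a far narrower range. Whether RNA input or miRNA content set the sums was not tested. The deposited values were scaled by the trimmed mean of M values (TMM). Its multipliers ran from 0.177 in normal lung replicate 2, which stood apart in total, to 2.48 in spheres replicate 2. Scaled values are called normalized values. Comparisons used limma on log2(normalized value + 1) over 583 probes, and a change was called at a Benjamini-Hochberg adjusted p below 0.05. The epithelial markers (the miR-200 family, miR-203 and miR-205) summed, as normalized values, to 930 to 5385 in carcinoma, 59.4 to 1758 in EMT-like areas and 54.5 to 112 in the cultures, where no miR-200 family probe was detected. In bulk samples, fewer cells of a type and less RNA per cell cannot be told apart.

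miR-221 was detected in 24 of 24 samples and miR-222 in 19 of 24. By mean log2 level, miR-221 was ordered spheres, EMT-like, carcinoma, monolayer, normal lung, lung metastasis and NMG, and every neighbouring pair in that order overlapped. miR-222 was ordered normal lung, spheres, EMT-like, carcinoma, lung metastasis, NMG and monolayer. In this order normal lung stood above the spheres without overlap, but that rank holds for TMM scaling only. Relative to the miRNA sum of the lane, both sphere cultures (41 of 36679 and 41 of 31163) stood above both normal lung samples. Normal lung held 264 of 589588 and 1057 of 2334955. NMG, at 16.5 and 22.3, stood above both measured monolayer values. Those were under lane limits of 33.2 and 34.4 after scaling, so the order of NMG and monolayer is not known. All other neighbours overlapped.

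**Figure D1:**
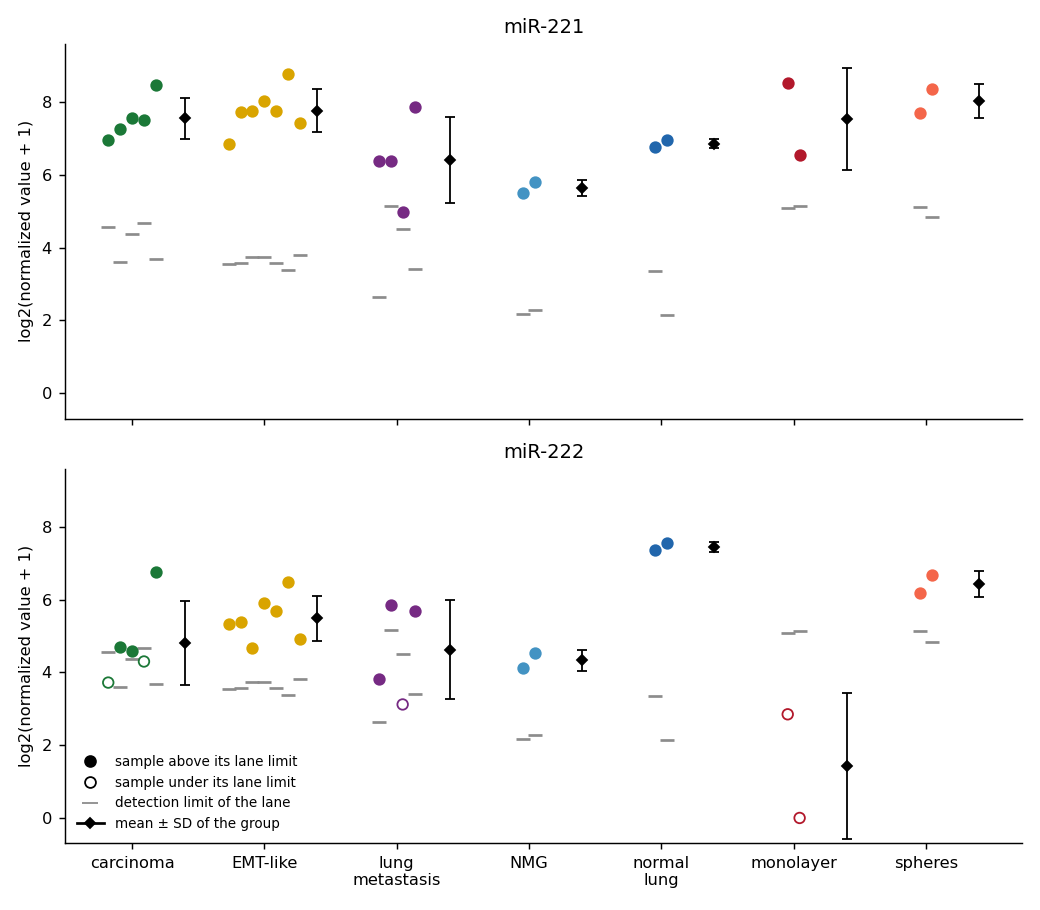
Level of miR-221 (upper panel) and miR-222 (lower panel) in each sample as log2(normalized value + 1), by group. Filled points lie above the detection limit of their lane (grey dash), open points under it, and diamonds with bars give the mean ± SD of the group. miR-222 was under the limit in both monolayer cultures and, after TMM scaling, highest in both normal lung samples.

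Spheres were compared with the monolayer to ask which miRNAs change when the same cells grow without attachment. The deposited values of miR-222 were 4 and -3 in the 2 monolayer cultures and 41 in each of the 2 sphere cultures. Both monolayer values were under the limit of their lane and both sphere values above it, so the groups did not overlap. After scaling, the monolayer cultures stood at 6.21 and 0 and the sphere cultures at 71.4 and 102. With the monolayer set to its detection limit, miR-222 was at least 2.48-fold higher in spheres, and at least 2.10-fold higher without scaling. The fitted difference, 5.005 on the log2 scale (SE 0.95, limma adjusted p = 0.00317), depends on the pseudocount and is no measure of size. In this comparison 4.63% of probes were called, and 2.92% were called higher in spheres. The call was lost in other fits. The adjusted p was 0.911 when the 4 cultures were fitted alone, 0.225 with unequal weights for the lanes and 0.131 with a higher background subtracted, within a range of 0.00147 to 1 over the alternatives.

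miR-221 gave deposited values of 237 and 45 in monolayer cultures, against 118 and 132 in sphere cultures. Its normalized values were 368 and 91.7 in monolayer, against 206 and 327 in spheres. Both sphere values lay between those of the 2 monolayer cultures. The difference was 0.49 on the log2 scale (95% confidence interval -0.99 to 1.97, limma adjusted p = 1), and it turned to -0.50 without monolayer replicate 2. The interval includes changes in both directions, so with 2 cultures a group no difference was detectable.

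The same spheres were set against the 12 areas of PT. miR-221 averaged 266 ± 86.0 (SD, n = 2) in spheres and 219 ± 94.99 (SD, n = 12) in PT, and both sphere values lay within the PT range of 115 to 441. The log2 difference was 0.35 (95% confidence interval -0.78 to 1.48, limma adjusted p = 0.804), in a comparison where 22.5% of probes were called and 3.77% were called higher in spheres. miR-222 averaged 86.5 ± 21.4 (SD, n = 2) in spheres and 43.2 ± 29.2 (SD, n = 12) in PT. Its values in PT reached from 12.2 to 108, again on both sides of the spheres, and the log2 difference was 1.23 (95% confidence interval -0.29 to 2.74, adjusted p = 0.288). These results depended on scaling. With the 100 most abundant miRNAs or the miRNA total as the scale, both members were called higher in spheres, with log2 differences of 1.43 and 1.28 for miR-221 and 2.30 and 2.15 for miR-222. Without scaling, miR-221 was 0.71 lower on the log2 scale. The endothelial miR-126 pair, which summed to 1067 to 2626 in PT, was at 0 in all 4 cultures, and its part in these differences was not tested.

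Carcinoma and EMT-like areas were compared because tumor cells change shape within a single tumor. Normalized miR-221 was 123, 152, 189, 180 and 357 in the 5 carcinoma areas. In the 7 EMT-like areas it ranged from 115 to 441 with a median of 215. The ranges overlapped almost throughout, and the difference, carcinoma minus EMT-like, was -0.21 on the log2 scale (SE 0.42, 95% confidence interval -1.08 to 0.66, limma adjusted p = 0.925). Of all probes 0.172% were called in this comparison.

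miR-222 was lower and closer to the limit in both kinds of area. Its normalized values in carcinoma were 12.2, 24.8, 23.0, 18.7 and 108, and 3 of the 5 were above the limit. In EMT-like areas they ranged from 24.4 to 88.7 with a median of 41.0, and 7 of 7 were above the limit. Carcinoma replicate 5 held the highest value of either group, and 3 of the other carcinoma values were measured below every EMT-like area. Of these, replicates 1 and 4 were under their limits. The scaled limit of replicate 4, 24.6, lies above the lowest EMT-like value, so its order is not known. The log2 difference was -0.67 (SE 0.56, 95% confidence interval -1.83 to 0.49, limma adjusted p = 0.653), so no change was called.

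Within animals the picture was mixed. Both kinds of area came from 4 animals or pools of animals. miR-221 was higher in the carcinoma area in 2 of 4, with log2 differences from -0.46 to 0.46. By its measured values miR-222 was higher in carcinoma in 1 of 4, with differences from -1.61 to 0.87. Carcinoma replicate 4 was under a scaled limit of 24.6, beside 24.4 in the EMT-like area of its animal, so that order is not known. In the animal of carcinoma replicate 5 both members were higher in the carcinoma area, and this was the animal where measured miR-222 ran against the other 3.

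**Figure D2:**
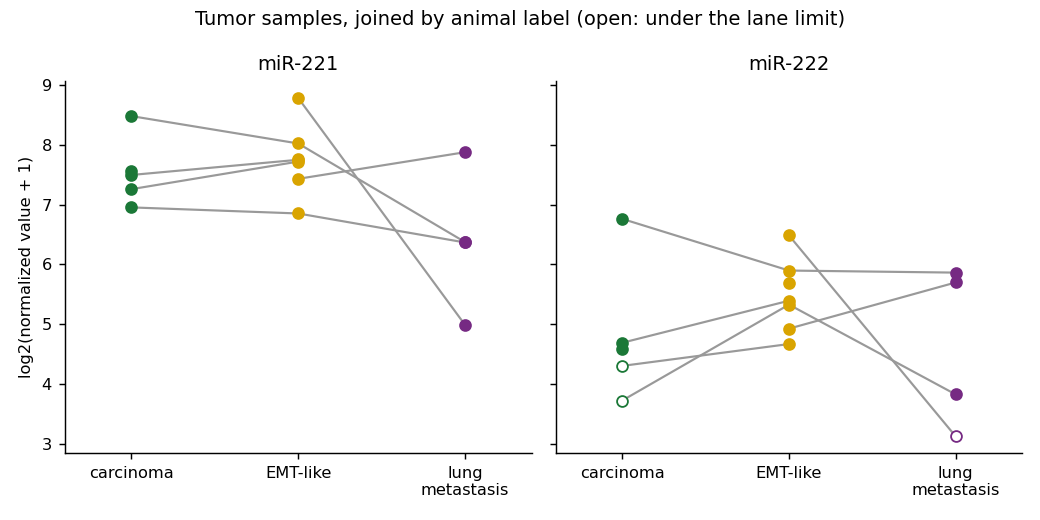
Levels of miR-221 (left) and miR-222 (right) as log2(normalized value + 1) in carcinoma areas, EMT-like areas and lung metastases, with lines between samples that carry the same animal label. Each point is a sample, and open points are under the detection limit of the lane. Lines between carcinoma and EMT-like areas run in both directions for both members.

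Both tumor areas were compared with the 2 NMG samples, which the comparisons share, to ask which miRNAs separate tumor from normal gland. Normalized miR-221 was 44.1 and 54.6 in NMG. All 5 carcinoma areas (123 to 357) and all 7 EMT-like areas (115 to 441) were above both. miR-221 was 3.75-fold higher in carcinoma (log2 1.91, SE 0.60, limma adjusted p = 0.0195) and 4.34-fold higher in EMT-like areas (log2 2.12, SE 0.57, adjusted p = 0.00792). Of all probes 29.3% were called between carcinoma and NMG and 24.7% between EMT-like areas and NMG, where 5.49% and 4.46% were called higher and 23.8% and 20.2% lower in tumor. Over all probes the median log2 difference was -0.68 and -0.30.

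These calls depended on scaling and, in carcinoma, on the setting with a higher background, which also changed the scaling. The deposited values of miR-221 were 107 and 147 in NMG, 111 to 262 in carcinoma and 120 to 557 in EMT-like areas, and they overlapped. Without scaling the log2 difference was 0.36 in carcinoma (adjusted p = 0.706, the highest over the alternatives, which began at 0.00123) and 0.95 in EMT-like areas (adjusted p = 0.256). Scaled by the mRNA control probes it was 0.98 (adjusted p = 0.320) and 1.10 (adjusted p = 0.261, again the highest, from 0.000161). In carcinoma the call was also lost with another reference lane for TMM (1.47, adjusted p = 0.0654) and with a higher background (1.61, adjusted p = 0.101). Without NMG replicate 1 or without replicate 2, the differences stayed at 1.76 and 2.06 in carcinoma and 1.97 and 2.27 in EMT-like areas, and neither comparison was called with 1 NMG sample.

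miR-222 did not follow miR-221 past the threshold. Its normalized values in NMG were 16.5 and 22.3, below all 7 EMT-like areas and below the 3 carcinoma areas above the limit. Carcinoma replicates 1 and 4, measured at 12.2 and 18.7, were under scaled limits of 22.8 and 24.6. Their order against NMG is not known. The log2 difference was 0.48 in carcinoma (SE 0.80, 95% confidence interval -1.18 to 2.14, limma adjusted p = 0.748) and 1.15 in EMT-like areas (SE 0.76, 95% confidence interval -0.44 to 2.74, adjusted p = 0.323). The direction in carcinoma flipped to -1.04 without scaling, to -0.45 with the mRNA controls, to -1.33 with a higher background and to -0.017 without carcinoma replicate 5. Whether miR-221 and miR-222 differed in their response was not tested.

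Markers of other cell types were far higher in NMG. The miR-126 pair summed to 10971 and 17649 in NMG, 1067 to 1894 in carcinoma and 1314 to 2626 in EMT-like areas, and both probes fell in both areas. The 7 blood and immune markers summed to 11009 and 13731 in NMG, against 373 to 1037 in carcinoma and 386 to 778 in EMT-like areas, and 6 of 7 were called lower in each, while miR-142-5p was called higher in carcinoma (log2 1.21, SE 0.39, limma adjusted p = 0.0212). Of 6 stromal and smooth muscle markers, carcinoma areas had 5 called lower and EMT-like areas 4. Apart from miR-142-5p, the markers called ran opposite to miR-221, and their part in its level was not tested.

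Lung metastases were compared first with PT, to ask what differs once the cells have spread. Normalized miR-221 in the 4 metastases was 81.6, 82.1, 30.8 and 234, and 3 of the 4 were below every PT area. Replicate 4, at 234, lay inside the PT range. The log2 difference was -1.27 (SE 0.41, 95% confidence interval -2.13 to -0.42), with a p of 0.00548 that did not pass after adjustment (limma adjusted p = 0.103), where 3.09% of probes were called and 2.57% were called lower. Without metastasis replicate 4 it was -1.76 and was called (adjusted p = 0.0126), as it was without scaling (-1.84, adjusted p = 0.0115, in a range of 0.0115 to 0.133 over the alternatives). Without metastasis replicate 3, the lowest of the 4, it was -0.80 (adjusted p = 0.374). Of 6 stromal and smooth muscle markers, miR-10b, miR-199a-3p and miR-199a-5p were called lower in metastases as well (list median -0.91), while miR-150 and miR-451 of the blood and immune list and the epithelial miR-203 were called higher, and their part was not tested. Against EMT-like areas of the same 4 animals or pools, miR-221 was higher in the metastasis in 1 of 4, with differences from -3.80 to 0.45. Normalized miR-222 was 13.2, 57.2, 7.70 and 50.97 in the metastases, spread over the PT range of 12.2 to 108 and below it in replicate 3, which was under its limit. Its log2 difference from PT was -0.58 (95% confidence interval -1.72 to 0.57, adjusted p = 0.765).

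Against normal lung the members parted. After TMM scaling, miR-222 was 164 and 188 in normal lung, above all 4 metastases and above every other sample. It was 7.12-fold lower in metastases (log2 -2.83, SE 0.83, limma adjusted p = 0.00782), in a comparison where 49.2% of probes were called, 7.03% higher and 42.2% lower. The direction held in each setting tried, but the adjusted p, 3.91e-06 at its lowest, was 0.242 scaled by the 100 most abundant miRNAs, 0.229 by the miRNA total, 0.0587 with metastases and normal lung alone, and 0.0914 without normal lung replicate 2. The deposited values were 264 and 1057 in normal lung and 10, 30, 6 and 35 in metastases, which did not overlap. The miRNA sums did not overlap either, at 589588 and 2334955 against 61497 to 114004. Without scaling the median log2 difference over all probes was -2.34. Relative to the miRNA sum of the lane, metastasis replicate 2 (30 of 61497) lay above both normal lung samples (264 of 589588 and 1057 of 2334955).

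Normalized miR-221 was 108 and 123 in normal lung, above 3 of the 4 metastases and below the highest. The log2 difference was -0.46 (SE 0.62, 95% confidence interval -1.74 to 0.82, limma adjusted p = 0.601). Its sign was set by the scaling, since it was -2.59 without scaling, -2.94 by the mRNA controls, 1.03 by the 100 most abundant miRNAs and 0.998 by the miRNA total, and it was 0.010 without metastasis replicate 3. Markers of other cell types were high in normal lung. The endothelial miR-126 pair summed to 67772 and 70141 in normal lung and to 819 to 3114 in metastases, and the blood and immune markers to 53788 and 62108 against 756 to 1311. Both endothelial markers, 6 of 7 blood and immune markers and 4 of 6 stromal and smooth muscle markers were called lower in metastases, as miR-222 was, while miR-142-5p was called higher (log2 1.53, SE 0.40, limma adjusted p = 0.00387). Their part in the level of miR-222 was not tested.

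**Figure D3:**
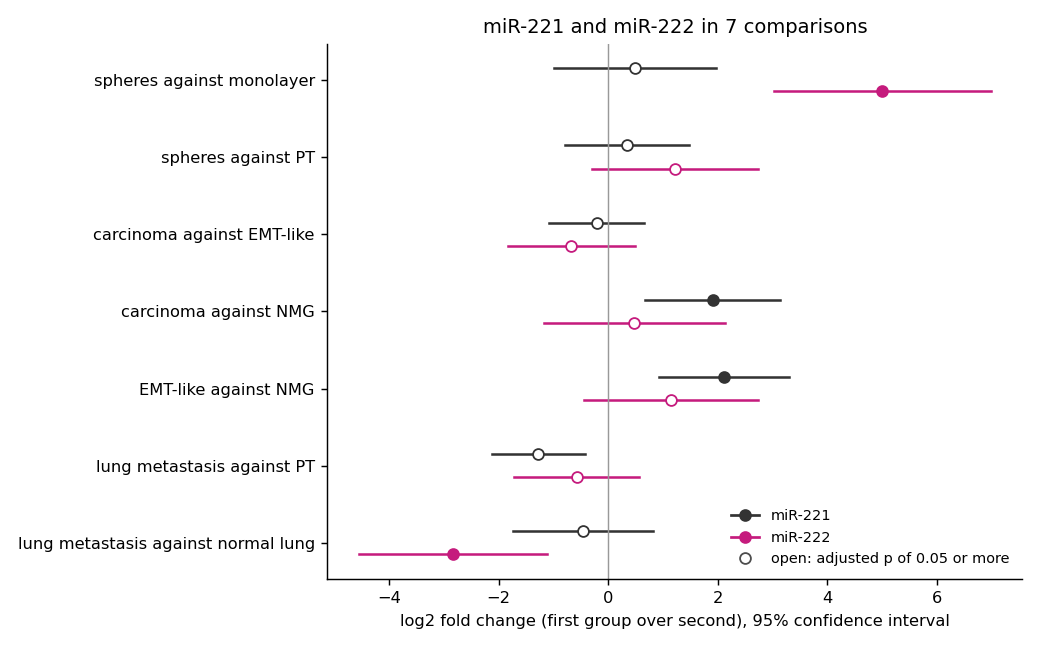
Log2 fold change of miR-221 (black) and miR-222 (magenta) in the 7 comparisons, first group over second, with 95% confidence intervals from limma. Filled points had an adjusted p below 0.05. miR-221 was called in both comparisons with NMG, and miR-222 in spheres against monolayer, where the size depends on the pseudocount, and in metastasis against normal lung.

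**Figure D4:**
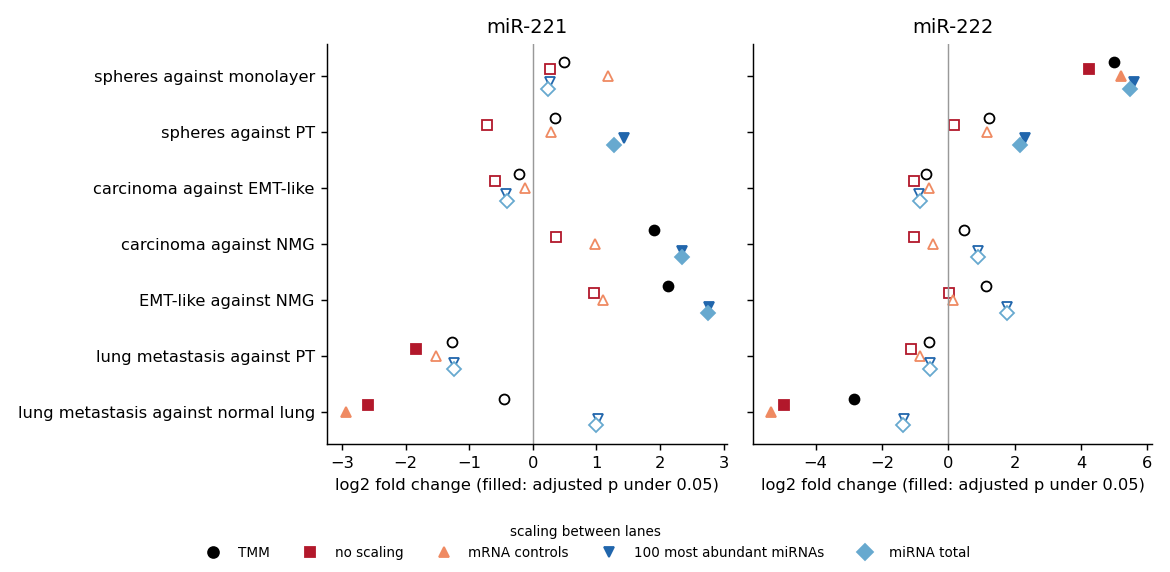
Log2 fold change of miR-221 (left) and miR-222 (right) in the 7 comparisons under 5 ways of scaling lanes, each with its own symbol. Filled symbols had an adjusted p below 0.05. The settings spread widest in metastasis against normal lung, where those of miR-221 fall on both sides of 0.

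The difference between the members within a sample is nearly free of the scaling, because both are multiplied by the same factor. Probes differ in efficiency, so shifts between samples are read here and not which member was more abundant. miR-221 minus miR-222 on the log2 scale averaged 2.28 in the 7 EMT-like areas (1.53 to 3.08). It was 2.57, 2.98 and 1.72 in the 3 carcinoma areas where miR-222 was detected, and 2.54, 0.51 and 2.18 in the 3 such metastases. These tumor ranges overlapped. It was 1.26 and 1.37 in NMG and 1.51 and 1.68 in the spheres. In normal lung it was -0.61 and -0.59. The sign was positive in 22 of 24 samples, and the 2 exceptions were the normal lung samples, with or without scaling.

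In 5 samples the difference was only bounded, because miR-222 was under its limit. With miR-222 set to that limit, it was at least 2.39 and 2.82 in carcinoma replicates 1 and 4 and at least 0.47 in metastasis replicate 3. In the monolayer it was at least 3.43 in replicate 1 and at least 1.39 in replicate 2. The first monolayer bound lies above both sphere values and the second below them, so a shift of the balance between monolayer and spheres was shown in 1 of the 2 monolayer cultures. No test was made on the difference, which is a score over both members.

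**Figure D5:**
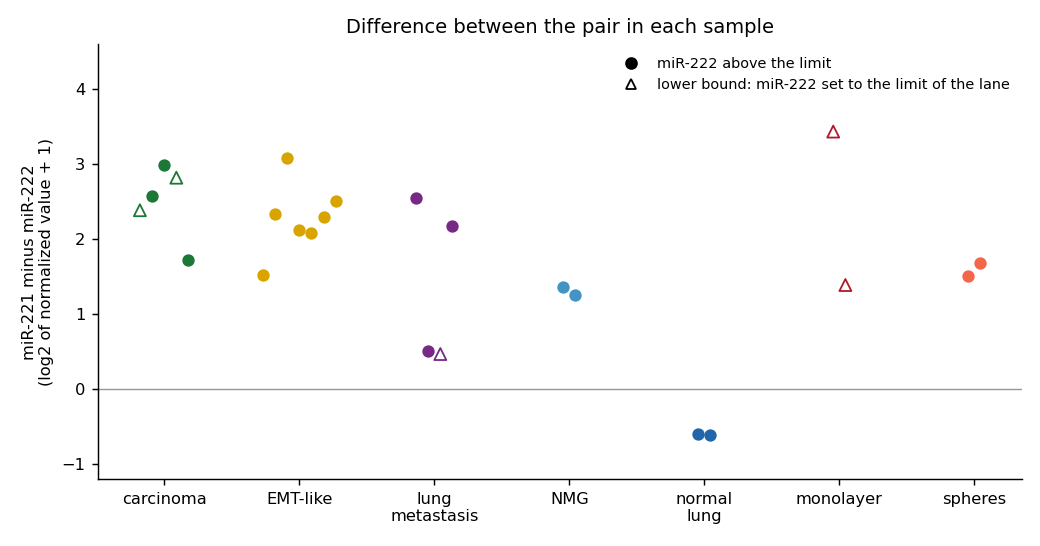
Difference between miR-221 and miR-222 in each sample, on the scale of log2(normalized value + 1), by group. Points are samples with miR-222 above its limit, and triangles are lower bounds with miR-222 set to the limit of the lane. The normal lung samples are the 2 below 0.

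Over the 24 samples the members correlated with a Pearson r of 0.38 and a Spearman rho of 0.41, as a description of samples that share lane scaling and animals. miR-222 was above its limit in 19 of these samples, and the others entered at measured values floored at 0. Without metastasis replicate 3 and NMG replicate 1, which lay farthest from the median of miR-221, r was 0.28. Among the 16 tumor samples r was 0.74 and rho 0.71, and without the 2 normal lung samples r was 0.49 over the other 22.

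Over all 24 samples, other miRNAs followed each member more closely than its partner did. Of 196 probes detected in at least 12 samples, the 5 most like miR-221 were miR-31 (r = 0.82), let-7e (0.74), miR-149 (0.73), miR-125a-5p (0.63) and miR-9 (0.48), and miR-222 ranked 13. miR-31, studied as a suppressor of breast cancer metastasis, averaged 263 in spheres, 110 in EMT-like areas, 92.5 in carcinoma, 41.2 in metastases and 24.2 in NMG. let-7e and miR-125a-5p come from a single cluster. In the 16 tumor samples r with miR-221 was 0.83 for miR-31 and 0.84 for miR-149, but -0.02 for miR-9. miR-9 averaged 1029 in carcinoma, 8.86 in NMG and 13.4 in normal lung.

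The 5 most like miR-222 were miR-350 (r = 0.76), miR-23a (0.71), miR-361 (0.70), miR-181a (0.69) and miR-29a (0.67), and miR-221 ranked 50. These were picked by correlation over the same samples, so a shared highest and lowest group follows in part from the choice. All 5 were highest on average in normal lung, and 4 of the 5 were lowest in the monolayer, as miR-222 was by its measured values. miR-29a, the exception, averaged 7189 in normal lung, 984 in the monolayer and 796 in metastases. miR-23a averaged 4733 in normal lung, 851 in the monolayer and 1078 in metastases. The r values over all samples include those with miR-222 under its limit, among them both monolayer cultures. miR-361 was measured there at 0 and 7.76. In the 16 tumor samples r with miR-222 was 0.65 for both miR-23a and miR-29a, against 0.40 for miR-350, 0.20 for miR-181a and 0.00 for miR-361. There the partner, at 0.74, lay above all 5, and for miR-221 it lay below miR-31 and miR-149 and above the other named miRNAs.

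miR-1928, the third miRNA with the seed, contributed little signal. Its deposited values ran from 1 to 30, and it was above the limit in 12 of 24 samples, among them 6 of 7 EMT-like areas and 1 of 5 carcinoma areas and none of the 4 cultures. Its normalized values in EMT-like areas ranged from 12.2 to 27.2 and in carcinoma from 0.957 to 11.8. In carcinoma replicates 1, 3 and 4 it was under scaled limits of 22.8, 19.7 and 24.6. Those limits lie inside the EMT-like range, so a lack of overlap is not shown. The log2 difference, carcinoma minus EMT-like, was -2.01 (SE 0.53, limma adjusted p = 0.0646), which did not pass the threshold. It rests mostly on carcinoma values under the limit.

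Other miRNAs known to repress CDK inhibitors were read from 5 probes covering miR-106b, miR-93, miR-25, miR-17 with miR-106a and miR-20a with miR-20b, which act mainly on p21 (Cdkn1a) and p57. Against NMG, 1 of 5 was called higher in carcinoma, miR-93 (log2 1.15, SE 0.42, limma adjusted p = 0.0403), where 5.49% of all probes were, and none in EMT-like areas. Their median log2 difference in carcinoma was 0.95, beside -0.68 over all probes. In spheres against PT, 4 of 5 were called lower, where 18.7% of all probes were, and neither member of the pair was called there. The list median was -2.51, beside -0.15 over all probes. The median was -0.82 over the 323 probes that reached 20 in at least 2 samples, and 116 of these were called lower. miR-106b, 1 of the 4 called, was under the limit in every culture. No probe of the list was called between spheres and monolayer, between carcinoma and EMT-like areas, or for lung metastasis against PT or normal lung.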

How the data were processed

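Per the labels and the study's methods, laser-captured tissue and cultured cells were lysed, miRNA was purified and hybridised to the nCounter mouse miRNA panel, and each sample was read in 1 lane. The deposited values are scores, here barcode counts from which the authors took away the average negative control, not scaled between lanes and with 35.2% of miRNA values below 0. Values below 0 cannot enter a count model, so the design's replacement for it was used. Partek is named in the submitters' notes, with no version or role. The test was limma 3.58.1 (R 4.3.3) with trend and eBayes on log2(value + 1) after TMM scaling (trims of 30% and 5%, values floored at 0), in 1 fit of 7 groups with the animal as a random block (correlation -0.003). The 583 probes that exceeded 0 anywhere were tested. PT combined carcinoma and EMT-like areas by sample. Tables were prepared in Python 3.11.15 with pandas 2.3.3. The limma test was tried on simulated data, scaled by their known totals rather than by TMM and made without animal effects. That trial does not cover the scaling.

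The members, lists and comparisons were chosen with earlier results of these data known. Named were the members, the 5 probes most like each, the miRNA that shares the seed, and counts of the lists. Alternatives covered scaling, filter, background, pseudocount, blocks, samples in the fit and each left-out sample. The number of samples, not the miRNA sum of a lane alone, limits the precision. A p-value weighs a difference against the spread between samples, which the main fit estimated over all 7 groups together. The call of miR-222 in spheres against monolayer used that shared spread (SE 0.95). It was lost with the cultures alone (SE 1.27).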

Additional observations from a re-analysis of the deposited data

Results flagged for a closer look

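miR-222 differed between the organs in how metastasis and tumor compared with normal tissue. Its log2 difference between lung metastasis and normal lung minus that between PT and NMG was -3.70 (SE 1.10, limma adjusted p = 0.0319). This test was added after the data were seen, and 11.5% of probes were called in it, 0.686% higher and 10.8% lower. The mean log2 level of miR-222 was 7.46 in normal lung and 4.33 in NMG, against 4.63 in metastases and 5.20 in PT. The normal tissues therefore stood farther apart than metastases and PT did. After TMM scaling, miR-222 was lower in all 4 metastases than in both normal lung samples. The 10 PT areas above the limit lay above both NMG samples. Carcinoma replicates 1 and 4, measured at 12.2 and 18.7, were under scaled limits of 22.8 and 24.6. Their order against NMG, at 16.5 and 22.3, is not known. For miR-221 the same difference was -2.49 (SE 0.82, adjusted p = 0.0551), and it passed the threshold under 6 of 11 alternatives, with adjusted p from 0.00165 to 0.181 over them. Both normal tissues had 2 samples that carry the same 2 sample numbers. The call of miR-222 was lost without normal lung replicate 1 (-3.80, adjusted p = 0.0590) or 2 (-3.60, adjusted p = 0.126), without NMG replicate 1 (-3.49, adjusted p = 0.151) or 2 (-3.91, adjusted p = 0.0778), and without metastasis replicate 1 (-3.42, adjusted p = 0.0660) or 3 (-3.20, adjusted p = 0.0686). Over the other alternatives its adjusted p ran from 0.000262 to 0.161.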

How the results depend on the processing

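The miRNA sum was lowest in the cultures, where the limit was 11.1 to 21.4 counts. Without scaling, log2 differences were -0.71 (miR-221) for spheres against PT, 0.36 (miR-221) and -1.04 (miR-222) for carcinoma and 0.95 (miR-221) for EMT-like areas against NMG, and for miR-221 -1.84 for metastasis against PT, -2.59 against normal lung and -3.30 for the difference between organs. By the 100 most abundant miRNAs or the miRNA total, they were 1.43 and 1.28 (miR-221) and 2.30 and 2.15 (miR-222) for spheres against PT, 1.03 and 0.998 (miR-221) and -1.34 and -1.37 (miR-222) for metastasis against normal lung, and -2.75 and -2.78 for the difference between organs in miR-222. By the mRNA controls, they were 0.98 (miR-221) and -0.45 (miR-222) for carcinoma and 1.10 (miR-221) for EMT-like areas against NMG, and for miR-221 -2.94 against normal lung and -3.99 between organs. TMM against metastasis replicate 3 gave 1.47 for miR-221 in carcinoma against NMG, which ended the call (adjusted p = 0.0654).

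With a higher background (mean plus 2 SD of the negative controls), miR-222 gave 4.05 for spheres against monolayer and -1.33 for carcinoma against NMG, and miR-221 gave -0.13 for spheres against PT, 1.61 for carcinoma against NMG (no longer called, adjusted p = 0.101), -2.23 for metastasis against PT and -3.51 between organs. The setting with a higher background also floored values at 1 and recomputed TMM on them, so its effect is not that of background alone. With lane weights, added after the data were seen, miR-222 kept 5.005 for spheres against monolayer (adjusted p = 0.225) and miR-221 gave -2.40 between organs. With the compared groups alone, miR-222 kept 5.005 for spheres against monolayer (adjusted p = 0.911) and -2.83 for metastasis against normal lung (adjusted p = 0.0587), and miR-221 gave -2.49 between organs, as it did with a filter on low values (-2.49, adjusted p = 0.0475). The replicate block of the culture number, which only shares a number, left 5.005 with an adjusted p of 1, and the fit without the animal block changed no call of either member. The cause was not tested for any of these.

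Leaving out 1 sample gave -0.50 to 1.49 (miR-221) and 3.58 to 6.43 (miR-222) for spheres against monolayer, 1.67 to 2.06 and -0.017 to 0.75 for carcinoma against NMG, and 1.95 to 2.27 (miR-221) for EMT-like areas against NMG. It gave -1.76 to -0.80 (miR-221) for metastasis against PT, -0.95 to 0.010 and -3.25 to -2.33 against normal lung, and -2.98 to -2.02 and -4.12 to -3.20 between organs. With 1 sample left in a group, that sample is assumed to vary like the others.

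Of 583 probes, the main setting and the range over settings called 27 (0 to 49) for spheres against monolayer, 131 (90 to 260) for spheres against PT, 1 (0 to 19) for carcinoma against EMT-like areas, 171 (102 to 317) and 144 (98 to 325) for carcinoma and EMT-like areas against NMG, 18 (10 to 41) and 287 (151 to 387) for metastasis against PT and normal lung, and 67 (37 to 174) between organs. The median of all probes for carcinoma against NMG moved from -0.68 to -1.81 without scaling and -0.32 by the miRNA total, and the share of calls that were higher from 18.7% to 1.70% and 31.9%.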
